A study of Mus musculus with 2 samples.

Results

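Among dendritic cells sorted from mouse lung as CD172a-expressing type 2 conventional dendritic cells (cDC2), 136 of 2672 kept barcodes carried at least 1 UMI of Cd7 and at least 2 UMIs of Plac8, a share of 5.09% (exact 95% binomial interval 4.29 to 5.99). A UMI is a molecular barcode that counts 1 captured RNA molecule. These Cd7 Plac8 cells were compared with 2088 barcodes of the same library that had neither gene and at least 3 UMIs of Mgl2 and Cd209a together, the lectin genes that mark most lung cDC2. Both groups were drawn from barcodes that passed minimums of 500 genes and 1000 UMIs and a mitochondrial limit of 10%, with no Cd79a, fewer than 10 UMIs of S100a8 and S100a9 and fewer than 3 of Fscn1, which sets aside B cells, neutrophils and mature migratory dendritic cells. The remaining 448 kept barcodes met neither rule.

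The mice were C57BL/6, between 8 and 10 weeks of age. The labels give C57BL/6 as the cell line and the cell kind as the strain, and C57BL/6 was read as the strain. Lungs were digested with dispase, and cells were sorted either for XCR1, the chemokine receptor of type 1 conventional dendritic cells (cDC1), or for CD172a, the surface protein encoded by Sirpa. Each sort gave 1 droplet-based single-cell RNA library, and the labels name no genotype or treatment beyond C57BL/6. How many mice were pooled for a library is not stated in the labels.

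Conventional dendritic cells arise from bone marrow precursors and present antigen to T cells, with cDC2 depending in part on Irf4 and cDC1 on Irf8. Plasmacytoid dendritic cells (pDC) depend on Tcf4, carry Siglech and Bst2, and answer viral nucleic acid with interferon through Irf7, while Spib supports their identity. Cells between pDC and cDC2 in their gene expression have been called transitional dendritic cells, and monocytes that enter the lung can also express CD172a. Cd7 encodes a receptor best known from lymphocytes, and Plac8 a small cysteine-rich protein of lymphoid and myeloid cells.

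With 1 library per sort there is no replicate, so no test across samples can be made. Values are UMIs summed over the cells of a group and given as CPM (the count scaled to a group total of 1000000), each interval is an exact 95% interval that covers counting error only, and a gene was called higher or lower when the groups differed at least 2-fold. The 5984 barcodes of the series divide into 3045 in the cDC2 sort and 2939 in the cDC1 sort, of which 2672 and 2470 were kept, with 36852841 and 33681130 UMIs. The libraries share 6 barcode sequences, none of them in a Cd7 Plac8 cell and 4 of them in comparison cells. In the kept barcodes of the cDC1 sort Cd7 was found in 5 (0.202%), against 248 (9.28%) in the cDC2 sort, and 1 barcode met the Cd7 and Plac8 rule.

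The Cd7 Plac8 cells together held 1887529 UMIs, with 2943 in the shallowest, a median of 11074.5 and 60050 in the deepest. The comparison cells held 29304777 UMIs, with a lowest value of 1270, a median of 13061 and a highest of 53030. Genes per cell had medians of 2691 and 2682, and the mitochondrial share had medians of 3.71% and 3.76%. Cells of at least 20000 UMIs made up 17.6% of the Cd7 Plac8 cells and 11.5% of the comparison cells, and because sums weigh such cells most, levels by depth are given below.

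Cd7 ranged from 1 to 20 UMIs per cell with a median of 3, and Plac8 from 2 to 43 with a median of 10.5. Both genes chose the cells, so these values only describe them. The Cd7 Plac8 cells were 48.1% of all kept barcodes with at least 2 UMIs of Plac8 and 54.8% of those with Cd7. Of the cDC2 lectins used for the comparison, Cd209a was found in 80.9% of them and Mgl2 in 44.1%. The shares in the comparison cells, chosen by these genes, were 92.1% and 98.3%. Counting Mgl2 and Cd209a together, 97 of the Cd7 Plac8 cells (71.3%) had at least 3 UMIs, 25 had 1 or 2, and 14 had none.

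**Figure D1:**
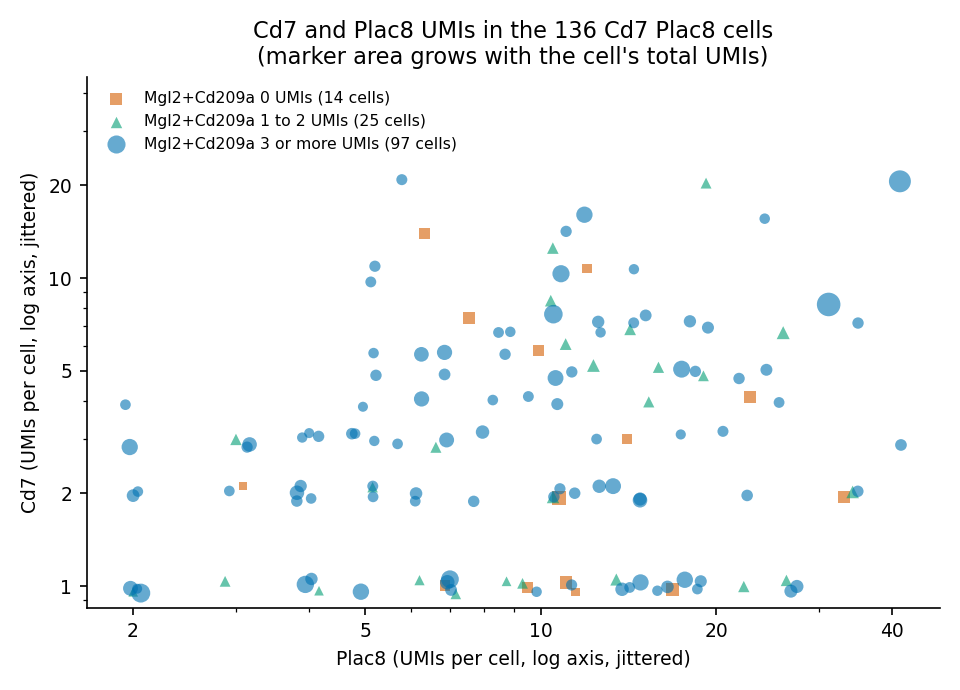
Each of the 136 points is a Cd7 Plac8 cell, with its Plac8 UMIs on the horizontal axis and its Cd7 UMIs on the vertical axis. Colour gives the cell's UMIs of Mgl2 and Cd209a together and point area its total UMIs. The medians are 3 Cd7 and 10.5 Plac8 UMIs, 36 cells sit at the limit of 1 Cd7 UMI and 8 at the limit of 2 Plac8 UMIs, and the 97 cells with at least 3 lectin UMIs spread over the plot.

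Of 6812 genes at 10 CPM or more in either group, 467 were at least 2-fold higher in the Cd7 Plac8 cells (6.86% of the genes) and 325 at least 2-fold lower (4.77%), so 11.6% were called in either direction. Every count of higher or lower genes of a list below is to be read against these shares. A gene under 10 CPM in a group was measured only through its level in the other group. The median gene was 0.23 higher on the log2 scale. Relative to that median, 255 genes were higher and 460 lower, so the share of called genes that were higher moved from 59.0% to 35.7%. For 18 of the 467 higher genes, 2 cells held at least 50% of the UMIs.

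Of the genes that mark the Cd7 Plac8 cells beside the pair in the rule, Ifitm6, Ms4a4c, Spib and Irf7 were all chosen with earlier results of these data known, and their values are a description. Ifitm6, an interferon-inducible transmembrane protein gene (ENSMUSG00000059108, chr7:141015699-141017924 on the minus strand of GRCm38), ranged from 0 to 13 UMIs per cell with a median of 3 and was found in 114 of 136 cells (83.8%), against 15.9% of comparison cells. Its level was 246 CPM against 18.2, a 13.6-fold difference (12.0 to 15.4). Most Cd7 Plac8 cells thus carried it and most comparison cells did not.

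Irf7, the regulator of type I interferon genes (chr7:141262706-141266481, minus strand), was found in 38 Cd7 Plac8 cells (27.9%) with at most 4 UMIs in any of them, and in 2.06% of comparison cells. The level was 31.8 CPM against 1.95, or 16.3-fold higher (11.2 to 23.9). Spib, an ETS-family factor of pDC and B cells (chr7:44525993-44532071, minus strand), was found in 34 cells (25%) and in 8.43% of comparison cells, at 33.4 CPM against 7.40 (4.51-fold, 3.35 to 5.99). A single cell held 13 of the 63 Spib UMIs. Ms4a4c, a membrane protein gene of the Ms4a cluster (chr19:11404770-11427246, plus strand), ranged from 0 to 30 UMIs with a median of 2 and was present in 69.9% against 40.4% of cells, at 179 CPM against 71.8 (2.49-fold, 2.22 to 2.80). On the log2 scale that is 1.32, which became 0.66 when the rule was read on thinned cells. Spib and Irf7 were thus seen in a minority of the Cd7 Plac8 cells, and the groups overlapped for all of these genes.

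**Figure D2:**
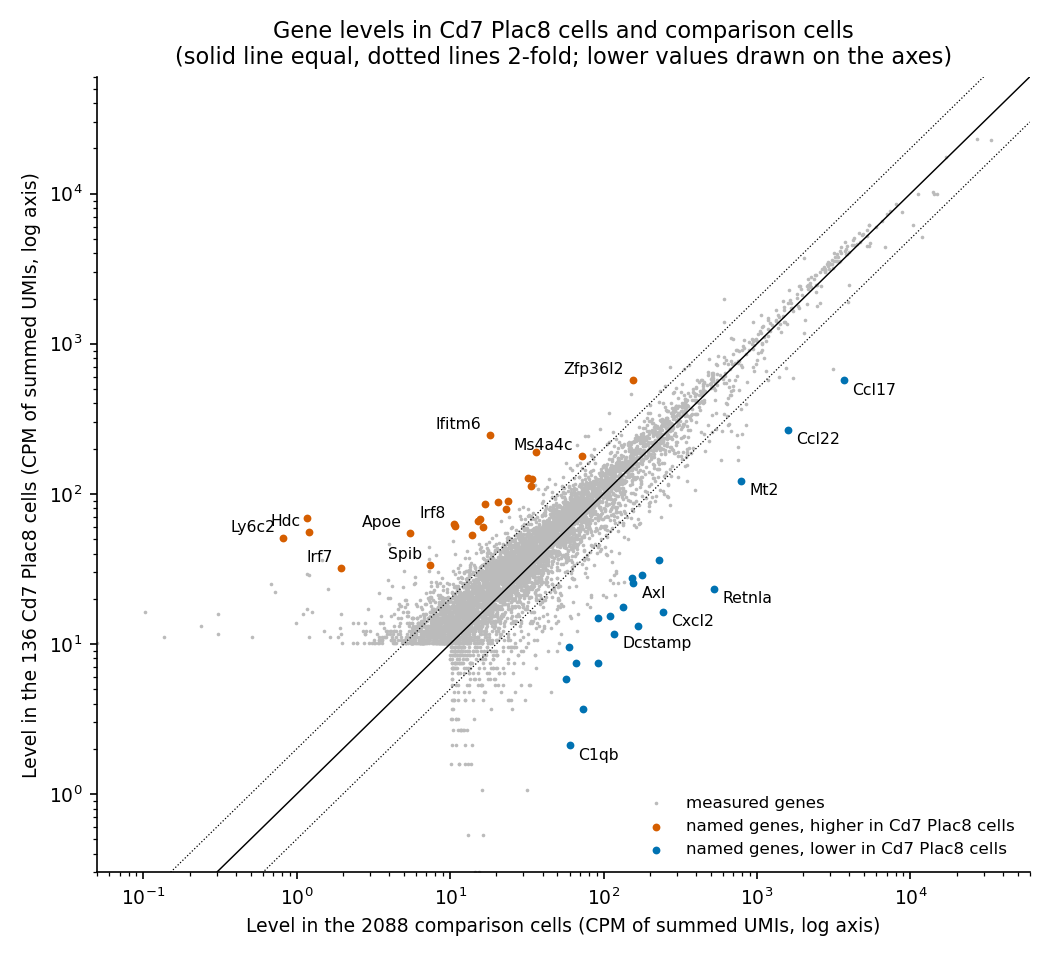
Each point is a measured gene, with its summed level in comparison cells on the horizontal axis and in Cd7 Plac8 cells on the vertical axis, both in CPM on log axes; coloured points are the 20 named genes with the largest differences in each direction and the markers of the cells, and the other measured genes are grey. Ly6c2, Irf7 and Ifitm6 lie far above the diagonal, and C1qb, Retnla, Ccl17 and Ccl22 far below it.

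At equal depth the pattern per cell was the same in direction. After each cell was thinned to 3000 UMIs, which left out 1 and 9 shallower cells and kept 135 Cd7 Plac8 cells and 2079 comparison cells, Ifitm6 was detected in 51.1% (42.4 to 59.8) and 5%. Irf7 was detected in 8.89% and 0.577%, Spib in 6.67% and 2.21%, and Ms4a4c in 25.9% and 17.0%. In the cDC1 sort, a separate library of another cell type, the shares at the same depth were 0.448% for Ifitm6, 1.51% for Irf7, 0.163% for Spib and 0.774% for Ms4a4c. These shares give no level of free RNA for the cDC2 library.

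**Figure D3:**
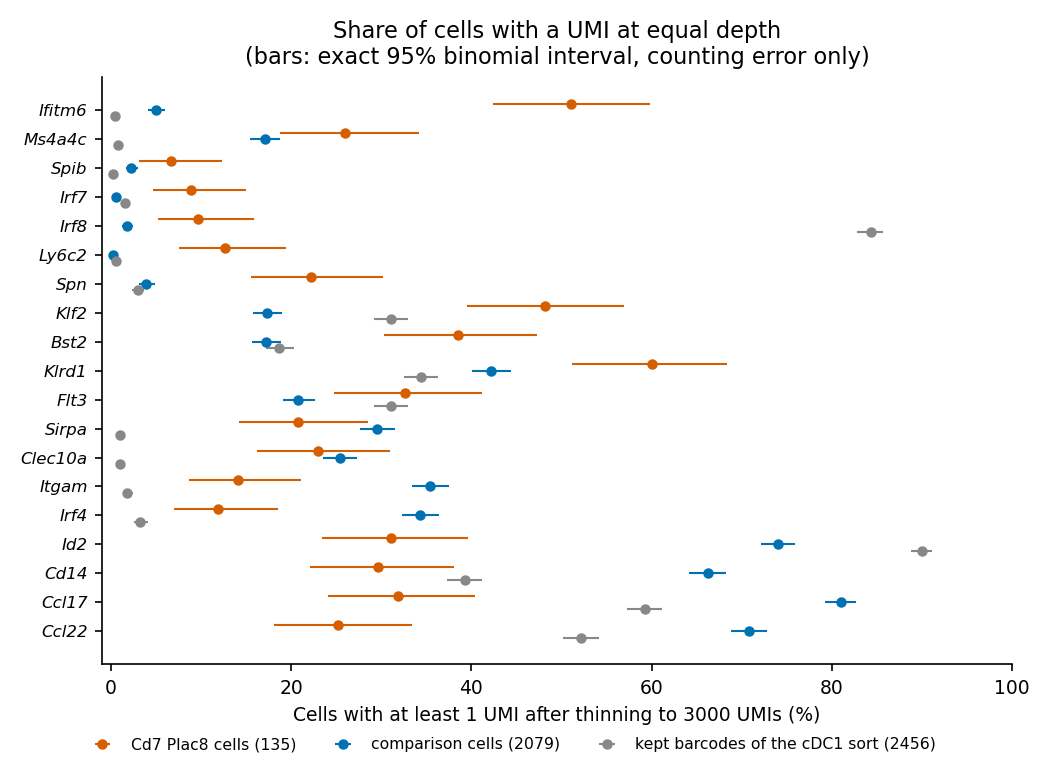
The share of cells with at least 1 UMI of each gene after thinning to 3000 UMIs, for 135 Cd7 Plac8 cells, 2079 comparison cells and the kept barcodes of the cDC1 sort; bars are exact 95% binomial intervals. Ifitm6 was detected in 51.1% of Cd7 Plac8 cells and 5% of comparison cells, whereas Ccl17 was detected in 31.9% and 81.0%.

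The Ifitm genes encode small membrane proteins, several of which restrict virus entry. All 5 measured members were at least 2-fold higher, against 6.86% of all genes, with a list median of 1.72 on the log2 scale against 0.23. Ifitm3 ranged from 0 to 85 UMIs per cell with a median of 24.5, against 0 to 55 with a median of 7 in comparison cells, and its level was 1992 CPM against 607 (3.28-fold). Ifitm2 had medians of 18 and 7 UMIs per cell and levels of 1401 and 609 CPM (2.30-fold). Ifitm1 was found in 68 Cd7 Plac8 cells, with 42 UMIs in the highest, at 189 CPM against 36.3 (5.21-fold). Ifitm3 and Ifitm2 were thus raised in the typical cell, and Ifitm1 in fewer of them. Relative to the median gene, Ifitm2 and Ifitm5 lay under 2-fold. The members are similar in sequence, and how reads were split between near-identical copies is not known.

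Of 21 measured interferon-stimulated genes, 13 were higher and none lower, against 6.86% and 4.77% of all genes. Their median log2 difference was 1.28 (0.85 without the 2 highest cells of each gene). Bst2, which tethers budding virus and marks mouse pDC, ranged from 0 to 29 UMIs per cell with a median of 2, against 0 to 7 with a median of 1, at 210 CPM against 66.9 (3.14-fold). Oas3, a sensor of double-stranded RNA, was 8.12-fold higher, at 12.2 CPM against 1.50. Epsti1, an interferon-induced gene among the 20 largest differences, was at 85.8 CPM against 16.9 (5.09-fold). Isg15, a ubiquitin-like interferon product named here after its value was seen, was at 21.7 CPM against 27.3. The list therefore did not move as a whole, and Ifi27l2a, at 359 against 287 CPM, also stayed within 2-fold.

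The PYHIN genes encode sensors of DNA in the nucleus and cytosol. Of 7 measured members, 5 were higher and none lower, with a median log2 difference of 1.74. Mndal was at 113 CPM against 33.9 (3.33-fold), Ifi203 at 90.1 against 23.9 (3.78-fold) and Ifi209 at 39.7 against 10.8 (3.68-fold). Aim2, which starts the DNA inflammasome, stayed within 2-fold at 36.0 against 28.9. The annotated spans of Mndal and Ifi203 overlap on chromosome 1, so their reads may not be told apart.

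Factors of the interferon system were mixed. Of 14 measured interferon regulatory factors, receptors and signal transducers, 4 were higher, including Irf7, Irf8 and Irf9, and 1 lower (Irf4). Irf9, which joins the complex that carries the type I interferon signal to the nucleus, was at 28.6 CPM against 13.2 (2.17-fold). The receptor subunits Ifnar1 and Ifnar2 were at 103 against 84.0 and at 108 against 64.5 CPM, within 2-fold.

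Promoter windows are shown for genes of these families and for the largest differences because they were searched for the letters that interferon regulatory factors bind. The windows run from 250 bases before to 50 bases after each RefSeq start site on GRCm38.p6, and both strands were searched for GAAA, any 2 bases and GAAA (the core of an interferon response element) and for GGAA, any 2 bases and GAAA (a composite element of ETS and interferon regulatory factors). Over all genes with a window, 3.99% held the first and 3.16% the second. Of the 20 genes with the largest differences above 2-fold, 17 had a window, with the first element in 2 (Ifi203 and Mndal) and the second in 5 (Cd209d, Clec2i, Epsti1, Ifitm6 and Spn). Of the 20 largest in the other direction, 17 had a window, with neither element in any. Among the 5 Ifitm genes, Ifitm2 and Ifitm3 held the first and Ifitm6 the second. The sequences below are 5′ to 3′ on the strand of the gene, with the matched letters in capitals. They are windows of Ifitm6 (chr7:141016843-141017142, minus strand), Epsti1 (chr14:77903989-77904288, plus strand), Spn (chr7:127137774-127138073, minus strand), Ifitm3 (chr7:141010695-141010994, minus strand), Ifi203 (chr1:173942443-173942742, minus strand) and Mndal (chr1:173880138-173880437, minus strand).
Ifitm6: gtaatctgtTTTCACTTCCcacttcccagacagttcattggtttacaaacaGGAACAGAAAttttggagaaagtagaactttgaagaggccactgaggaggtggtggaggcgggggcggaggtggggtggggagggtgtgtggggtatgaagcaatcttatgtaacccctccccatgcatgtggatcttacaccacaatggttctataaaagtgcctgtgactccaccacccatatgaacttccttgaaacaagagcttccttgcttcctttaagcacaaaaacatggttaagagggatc
Epsti1: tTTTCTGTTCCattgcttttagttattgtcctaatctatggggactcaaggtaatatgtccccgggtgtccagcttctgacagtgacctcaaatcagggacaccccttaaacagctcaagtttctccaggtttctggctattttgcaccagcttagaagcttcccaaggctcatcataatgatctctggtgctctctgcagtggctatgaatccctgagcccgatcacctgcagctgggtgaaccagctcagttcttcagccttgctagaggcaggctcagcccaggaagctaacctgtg
Spn: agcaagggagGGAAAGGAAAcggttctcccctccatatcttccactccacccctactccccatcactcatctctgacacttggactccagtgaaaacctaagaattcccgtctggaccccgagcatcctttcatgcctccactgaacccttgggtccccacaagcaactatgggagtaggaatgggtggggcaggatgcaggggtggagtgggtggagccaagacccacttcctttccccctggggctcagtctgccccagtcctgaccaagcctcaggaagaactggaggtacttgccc
Ifitm3: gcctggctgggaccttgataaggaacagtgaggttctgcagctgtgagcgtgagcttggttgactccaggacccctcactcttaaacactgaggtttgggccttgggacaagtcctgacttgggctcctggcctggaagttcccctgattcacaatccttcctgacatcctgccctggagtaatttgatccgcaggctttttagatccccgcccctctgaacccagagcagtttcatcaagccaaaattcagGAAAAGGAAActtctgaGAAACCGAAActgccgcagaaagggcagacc
Ifi203: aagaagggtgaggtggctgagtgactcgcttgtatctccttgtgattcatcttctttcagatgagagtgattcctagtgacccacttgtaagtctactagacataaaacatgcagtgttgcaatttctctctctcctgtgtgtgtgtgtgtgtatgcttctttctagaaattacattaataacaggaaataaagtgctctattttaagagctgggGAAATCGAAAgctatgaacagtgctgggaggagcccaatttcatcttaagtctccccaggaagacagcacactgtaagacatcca
Mndal: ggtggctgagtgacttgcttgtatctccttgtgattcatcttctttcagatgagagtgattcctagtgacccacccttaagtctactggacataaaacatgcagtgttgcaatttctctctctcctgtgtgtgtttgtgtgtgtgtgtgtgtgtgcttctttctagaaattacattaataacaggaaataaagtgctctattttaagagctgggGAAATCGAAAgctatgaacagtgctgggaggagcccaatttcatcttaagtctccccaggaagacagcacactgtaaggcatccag
A match is a run of letters and was not tested as a binding site.

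Of 10 measured pDC markers, 5 were higher and 1 lower, with a median log2 difference of 1.17 (0.35 when the 2 highest cells of each gene were left out). The 5 were Ly6c2, Bst2, Siglech, Runx2 and Lair1. Of these, Ly6c2, Siglech and Runx2 were under 10 CPM in the comparison cells and were measured only through the Cd7 Plac8 cells. Runx2, a factor needed for pDC to leave the marrow, was found in 25 cells at 17.0 CPM against 2.90 (5.84-fold). Tcf4, the factor on which pDC depend, had medians of 1 UMI per cell in the Cd7 Plac8 cells and 2 in the comparison cells, and its summed levels of 235 and 177 CPM were within 2-fold. Siglech, the lectin that defines mouse pDC, gave 23 UMIs in 6 cells, 16 of them in 1 cell, and its log2 difference of 2.18 turned to -0.25 without the 2 highest cells.

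The cell with 16 Siglech UMIs also held 17 of Irf8 and 13 of Spib, no Mgl2 or Cd209a, and 0.928% of its UMIs from MHC class II genes. It had 6678 UMIs and a mitochondrial share of 9.67%. Other pDC genes were seen mostly in 1 cell, such as Ly6d with 12 UMIs and Klk1 with 8. The summed pDC list ranged from 0 to 122 UMIs per Cd7 Plac8 cell with a median of 5.5, against 0 to 29 with a median of 4.

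Of 9 measured markers listed for transitional dendritic cells, 5 were higher and none lower, with a median log2 difference of 2.17. Those 5 were Ly6c2, Irf7, Runx2, Siglech and Spib, of which 3 are also on the pDC list, and Irf7 and Spib had been proposed as markers of these very cells. All 5 were under 10 CPM in the comparison cells and were measured only through their level in the Cd7 Plac8 cells. The count and the list median are therefore partly set by that filter. With a floor of 50 CPM the list median was 0.58. Klf4, at 273 CPM against 182, and Cx3cr1, a chemokine receptor of monocytes and transitional cells, at 72.1 against 41.6, were within 2-fold. The sum of the list per cell had a median of 8 UMIs (0 to 65) against 6 (0 to 37), so single cells overlapped widely. Axl, a receptor for apoptotic cells used to mark transitional dendritic cells in human, was lower, at 25.4 CPM against 156 (6.13-fold), and was found in 16.9% of Cd7 Plac8 cells and 71.2% of comparison cells.

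Ly6c2, which encodes a Ly6C antigen of classical monocytes and pDC, had the largest difference from the comparison cells among genes at 50 CPM or more in either group, apart from the genes of the rule. It was found in 31 Cd7 Plac8 cells (22.8%) with up to 18 UMIs, and in 0.623% of comparison cells. Its level was 50.9 CPM against 0.819 (62.1-fold, 39.4 to 102). Against all other kept barcodes its log2 difference was 3.75 in place of 5.96. Ly6c2 was therefore a mark of a minority of the Cd7 Plac8 cells. After thinning, it was detected in 12.6% of them and in 0.192% of comparison cells.

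Classical monocyte markers did not move together, with 4 of 9 higher, 3 lower and a median log2 difference of 0.08. The higher ones included Ly6c2, Ifitm6 and Ms4a4c. Ifitm6 and Ms4a4c had been chosen as markers of these very cells, and Ly6c2 was measured only through its level in them. Lyz2, the lysozyme of macrophages and monocytes, had medians of 4 and 8 UMIs per cell and levels of 573 and 1182 CPM (2.06-fold lower), a log2 difference of -1.04 that was -0.34 without the macrophage-gene cells described below. Cd14, the co-receptor for lipopolysaccharide, ranged from 0 to 25 UMIs with a median of 1, against 0 to 103 with a median of 6, at 205 CPM against 751 (3.66-fold lower). Ccr2, the receptor by which monocytes leave the marrow, was at 158 and 150 CPM, and Vcan had no UMI in any Cd7 Plac8 cell. The summed list had medians of 17 and 19 UMIs per cell.

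Nonclassical monocyte markers were mixed too, with 6 of 12 higher, 2 lower and a median log2 difference of 0.85. Spn, the sialomucin CD43, was at 66.2 CPM against 15.1 (4.38-fold, 3.56 to 5.35), and was detected in 49.3% and 14.8% of cells, or 22.2% and 3.90% after thinning. Ace, angiotensin-converting enzyme, was 36.5-fold higher, with its 47 UMIs in 11 cells and 15 of them in 1 cell. Against all other kept barcodes the log2 difference of Ace was 1.39 in place of 5.19, and Ace was found in 25.9% of the 147 kept barcodes with at least 2 UMIs of Plac8 and no Cd7, against 8.09% of the Cd7 Plac8 cells. Treml4, Eno3, Pglyrp1 and Adgre4 were 4.22-, 6.75-, 2.25- and 2.53-fold higher. Ear2 was lower, at 83.7 against 270 CPM (3.23-fold). The whole list summed to 1397 CPM against 1383, with medians of 12 UMIs per cell (0 to 162) and 15 (0 to 137). A set of 5 of the 6 higher genes (Ace, Treml4, Adgre4, Pglyrp1 and Eno3) was chosen after the data were seen. It reached 10 UMIs in 4 Cd7 Plac8 cells, with 38 in the highest, and in no comparison cell, where the highest had 7. The set leaves out every gene of the list that was not higher, so this contrast partly follows from the choice.

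Macrophage markers were low. Of 9 measured markers of interstitial macrophages, 7 were lower and 1 higher, with a median log2 difference of -3.20. The median turned to 0.086 when cells with at least 5 UMIs of macrophage genes were left out of both groups. Those genes were C1qa, C1qb, C1qc, Retnla, Fn1, Lpl and F13a1, and all but F13a1 are on the list. The filter thus acts on genes of the list itself, so the change in its median is no independent check. C1qb, a chain of complement C1q, had 4 UMIs in all Cd7 Plac8 cells, at 2.12 CPM against 60.0 (28.3-fold lower, 11 to 104), and C1qc and Mertk had none. Retnla, a secreted protein of alternatively activated macrophages, was at 23.3 CPM against 526 (22.6-fold lower), while 27.9% of Cd7 Plac8 cells and 27.8% of comparison cells had a UMI. Its log2 difference of -4.50 turned to 0.069 without the macrophage-gene cells, a filter that uses Retnla itself. Apoe, a lipid carrier, was the exception on the list at 54.6 CPM against 5.46. A single cell, the deepest of the Cd7 Plac8 cells with 60050 UMIs, held 82 of the 103 Apoe UMIs. Among cells of at most 15000 UMIs the log2 difference of Apoe was -0.20 in place of 3.32.

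No listed marker of T cells, neutrophils or basophils and mast cells reached 10 CPM in either group. Lck, Trac, Cd3e, Cd3g, Bcl11b and Trbc2 of T cells, Ncr1, Eomes, Gzma, Gzmb and Klrb1c of natural killer cells, and Pax5, Ebf1 and Ms4a1 of B cells had no UMI in any Cd7 Plac8 cell. Barcodes with Cd79a, or with at least 10 UMIs of S100a8 and S100a9, had been removed beforehand. The lack of B cell and neutrophil markers is therefore partly set by the selection. A count of 0 of 136 cells allows a share of up to 2.21% of cells with a UMI, taken as 3 counts of the total. The whole natural killer and innate lymphoid cell list nevertheless summed to 518 CPM against 404, with a UMI in 131 of the Cd7 Plac8 cells, and the B cell list to 89.0 against 43.5 CPM, with a UMI in 76. Hdc, which makes histamine, was 46.6-fold higher at 55.6 CPM against 1.19, and 2 cells with 40 and 49 UMIs held 84.8% of its UMIs. Those cells also held 11 and 13 UMIs of the basophil and mast cell set. Sets of another type reached 10 UMIs in 8 of the 136 Cd7 Plac8 cells and in 91 of the 2088 comparison cells, and without them 485 genes were higher and 325 lower. No doublet caller was run.

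Of 13 measured cDC2 markers, 2 were higher, 4 lower and the others within 2-fold, with a median log2 difference of -0.16. Sirpa, which encodes the sorted protein CD172a, was at 86.4 CPM against 125, and it was detected in 62.5% and 74.5% of cells, or 20.7% and 29.5% after thinning, against 0.977% of thinned cells in the cDC1 sort. Clec10a, a galactose-type lectin, was at 142 CPM against 139, Csf1r at 67.8 against 75.7 and Zeb2 at 380 against 298. Transcripts of the sorted protein and of these other cDC2 genes were therefore present at levels near those of the comparison cells, which had themselves been chosen by the lectins Mgl2 and Cd209a. The lower ones included Irf4, at 64.1 CPM against 174 (2.71-fold), Mrc1, the mannose receptor, at 60.4 against 162 (2.69-fold), and Il1rl1, the receptor for interleukin-33, at 15.9 against 68.0 (4.28-fold). Cd209d, a lectin of the DC-SIGN family, was higher at 78.9 against 23.3 CPM (3.39-fold), with 43.6% of its UMIs in 2 cells, and its log2 difference was 0.99 without the 2 highest cells of each gene.

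Markers shared by conventional dendritic cells were mostly at similar levels, with 2 of 12 lower, none higher and a median log2 difference of -0.27. Zbtb46, a factor of the conventional lineage, was at 53.0 CPM against 66.9, and Itgax, which encodes CD11c, at 239 against 276. Flt3, the receptor for the growth factor of dendritic cells, had a median of 1 UMI per cell in both groups and stayed within 2-fold at 126 against 75.2 CPM (1.67-fold). Cst3, cystatin C, ranged from 2 to 405 UMIs per cell with a median of 35, against 4 to 803 with a median of 153, at 5155 against 11875 CPM (2.30-fold lower). Id2, the inhibitor that opposes Tcf4 in conventional dendritic cells, had medians of 1 and 8 UMIs per cell, at 252 CPM against 799 (3.17-fold lower).

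Of 13 genes of antigen presentation by MHC class II, 1 was higher (H2-Eb2), none lower and the others within 2-fold, with a median log2 difference of -0.22. Cd74, the invariant chain, had medians of 233 UMIs (7 to 1358) and 458 UMIs (25 to 2585), at 22618 and 33775 CPM. H2-Ab1 had medians of 110 and 190 UMIs. The share of a cell's UMIs from H2-Aa, H2-Ab1, H2-Eb1 and Cd74 ran from 0.205% to 8.71% with a median of 4.98%, against 1.16% to 18.3% with a median of 7.82%. It was under 3% in 16 Cd7 Plac8 cells and 4 comparison cells, and without those cells 410 genes were higher and 317 lower. Class I genes, with 1 of 10 higher, none lower and a median of 0.16, were close to the median gene.

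Irf8, the factor of cDC1, pDC and monocytes, was found in 32 Cd7 Plac8 cells (23.5%) with up to 22 UMIs, and in 6.51% of comparison cells, at 63.0 CPM against 10.6 (5.94-fold, 4.77 to 7.36). Against all other kept barcodes in place of the comparison cells its log2 difference was 0.93 in place of 2.57, under the 2-fold line. After thinning it was detected in 9.63% of Cd7 Plac8 cells, 1.78% of comparison cells and 84.3% of the cDC1 sort. Clec9a, a receptor for dead cells on cDC1 and on early dendritic cells, was found in 18 cells at 13.8 CPM against 0.990 (13.9-fold), whereas Xcr1 was found in 4.41% of cells, against 4.17% of comparison cells and 86.8% of the cDC1 sort, or 0.741%, 0.818% and 49.6% after thinning. Cd207 and Itgae, other cDC1 genes of lung, had no UMI in the Cd7 Plac8 cells.

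Among other transcription factors, Klf2, a factor of leukocyte trafficking and quiescence, ranged from 0 to 26 UMIs per cell with a median of 2, against 0 to 31 with a median of 0, at 242 CPM against 79.7 (3.04-fold). Zfp36l2, an RNA-binding protein that speeds decay of AU-rich messages, had medians of 6.5 and 1 UMIs per cell, at 574 CPM against 155 (3.71-fold, 3.47 to 3.96). Over all 32 measured lineage factors, 5 were higher (Spib, Irf8, Runx2, Klf2 and Id3), 5 lower (including Rbpj, Prdm1, Irf4 and Id2) and the others within 2-fold. Klf2 and Zfp36l2 were raised in the typical cell, unlike Spib, Irf8 and Runx2.

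Of 14 measured chemokines, 7 were lower and none higher, with a median log2 difference of -1.30. Ccl17, a chemokine for CCR4 on T cells, ranged from 0 to 230 UMIs per cell with a median of 1, against 0 to 595 with a median of 25, at 569 CPM against 3678 (6.46-fold lower, 6.09 to 6.87). Ccl22, which binds the same receptor, had medians of 1 and 10 UMIs, at 268 against 1593 CPM (5.94-fold lower, 5.44 to 6.50). Ccl17 was detected in 31.9% of thinned Cd7 Plac8 cells and 81.0% of thinned comparison cells (70.6% and 94.0% before thinning), and Ccl22 in 25.2% and 70.9% (63.2% and 91.0%). Both chemokines were thus found in a smaller share of the Cd7 Plac8 cells at equal depth. In the thinned cells, chosen by the rule after thinning, the list median was -0.17. Cxcl2, which draws neutrophils, was at 16.4 CPM against 243 (14.8-fold lower), and Cxcl16 at 168 against 581 (3.45-fold lower).

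Some genes of activation and migration were lower as well. Of 5 measured genes of mature dendritic cells, 3 were lower and none higher, among them Ccr7, the receptor for lymph node homing, at 261 CPM against 673 (2.58-fold lower); cells with 3 or more UMIs of Fscn1 had been removed from both groups. Of 11 cytokines 4 were lower and none higher, including Il1b at 1907 CPM against 3891 (2.04-fold lower, and -0.95 on the log2 scale against all other kept barcodes). Cd80, which costimulates T cells, was at 68.3 CPM against 168 (2.45-fold lower), and Cd86 was within 2-fold at 245 against 289. Ccr1, a receptor for inflammatory chemokines, was 2.66-fold lower.

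Further genes among the 20 largest lower differences were Mt2, a metallothionein that binds metal ions, at 122 CPM against 787 (6.43-fold), Cd81, a tetraspanin, at 36.0 against 230 (6.38-fold), and Dcstamp, a membrane protein of cell fusion, at 11.7 against 116 (9.98-fold). Dcstamp was found in 7.35% of Cd7 Plac8 cells and 50.2% of comparison cells, and Fnbp1l, a protein that bends membranes, in 15.4% and 69.0%. Scgb1a1, a secretory product of airway club cells and not of dendritic cells, was 8.94-fold lower. Mmp12, Xlr, Fcrls, Gda, Slc7a11, Kdm4a and Dst were between 5.60- and 12.7-fold lower. Lyz1 and Lpl, genes of macrophages, were 19.8- and 12.4-fold lower, and without the macrophage-gene cells Lyz1 was -0.23 on the log2 scale.

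The other large higher differences were Ptp4a3, a phosphatase, at 61.5 CPM against 10.7 (5.75-fold), Fyb, an adaptor of T cell and myeloid signalling, at 127 against 31.9 (3.98-fold), and Slc44a2, Clec2i, Ddit4 and Gpr141, which were between 3.72- and 4.36-fold higher. In the Ms4a family, 3 of 4 were higher and 1 lower. Ms4a6b was at 126 CPM against 34.0 (3.71-fold, 3.21 to 4.28) and Ms4a6c at 482 against 234 (2.06-fold, under 2-fold relative to the median gene), whereas Ms4a6d was 4.04-fold lower at 29.7 against 120. Klrd1, the CD94 chain of natural killer receptors, had medians of 4 and 2 UMIs per cell and stayed within 2-fold at 410 against 230 CPM. It was detected in 94.1% and 81.1% of cells, or, after thinning, in 60.0% and 42.2% of them and 34.4% of the cDC1 sort.

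**Figure D4:**
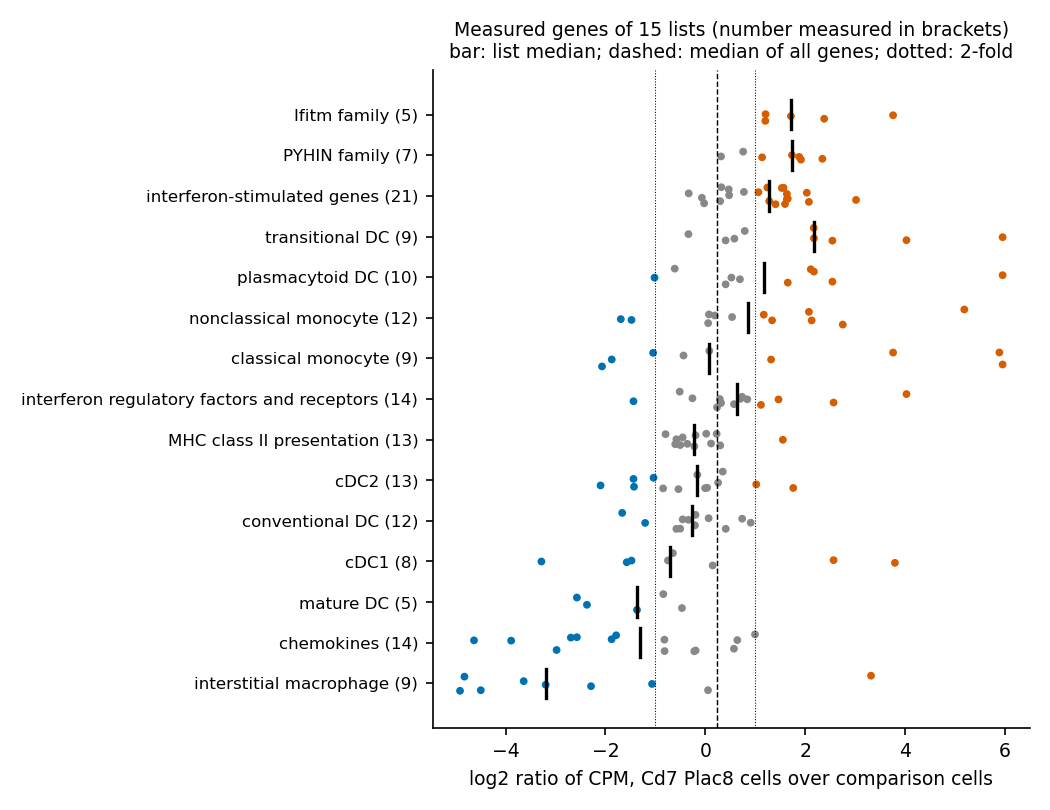
Each row is a list of markers or of a gene family, points are its measured genes (coloured where past 2-fold) and the bar is the list median, on a log2 axis of the level in Cd7 Plac8 cells over that in comparison cells; the line for all genes stands at 0.23. The Ifitm genes all lie above 1, 7 of 14 chemokines lie below -1, and the medians of the cDC2 and conventional dendritic cell lists are -0.16 and -0.27.

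Cycling genes did not separate the groups, with 1 of 13 higher, none lower and a median of 0.16. After thinning, 9.63% (5.23 to 15.9) of Cd7 Plac8 cells and 11.7% of comparison cells had at least 2 UMIs of the list, against 22.8% and 31.0% before thinning.

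The Cd7 Plac8 cells differed with depth. They were divided by total UMIs into 46 cells with a median of 8890.5, 45 with a median of 11096 and 45 with a median of 20287. From the shallowest to the deepest, Ifitm6 was at 399, 327 and 146 CPM, Irf7 at 41.2, 57.5 and 15.1, and Spib at 77.2, 41.6 and 12.1. Ccl17 was at 124, 91.2 and 985 CPM, Ccl22 at 103, 113 and 411, Id2 at 82.4, 145 and 373, and Cst3 at 3350, 3386 and 6757. The deepest cells thus carried lower levels of the marker genes and higher levels of genes that were high in the comparison cells, and Ifitm6 in them was still above the 18.2 CPM of the comparison cells, while the interval of Spib (6.23 to 21.1) held the 7.40 CPM of the comparison cells. Among cells of at most 15000 UMIs in both groups, 839 genes were higher and 468 lower. The part of depth in these differences was not tested.

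**Figure D5:**
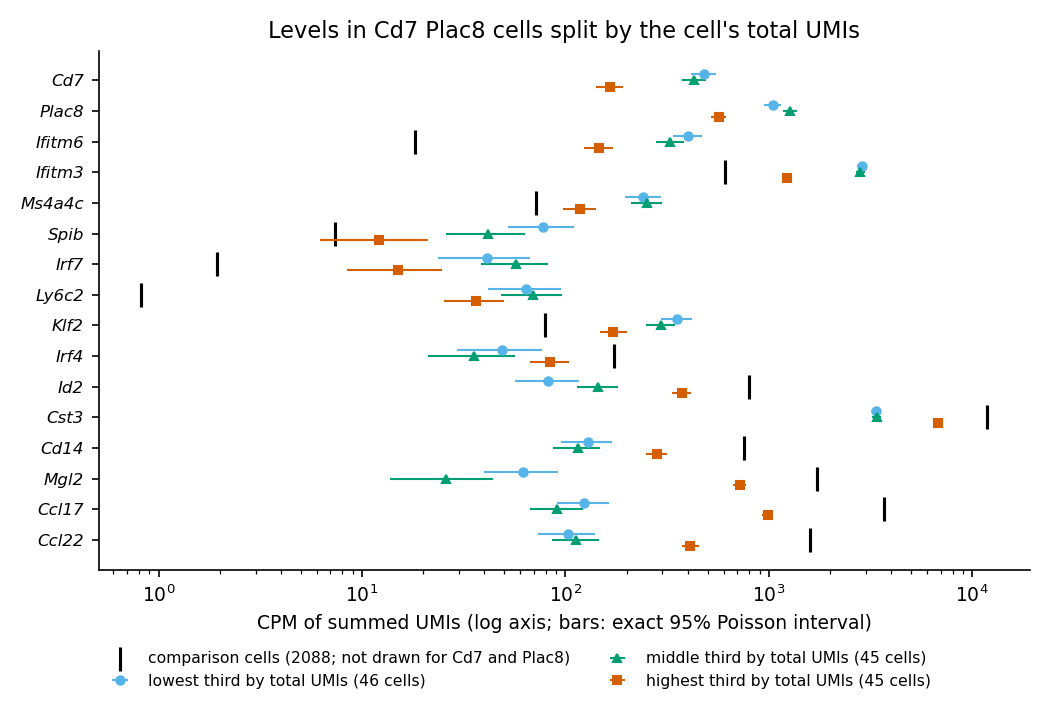
Levels of 16 genes in CPM on a log axis for the Cd7 Plac8 cells divided by total UMIs (46, 45 and 45 cells), with exact 95% Poisson intervals; vertical ticks mark the comparison cells. Ccl17 and Mgl2 were highest in the deepest cells, at 985 and 720 CPM, and Ifitm6 was lowest there, at 146 CPM.

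The Cd7 Plac8 cells were also divided by their UMIs of the lectins in the comparison rule. In the 14 cells without Mgl2 or Cd209a, Irf8 was at 435 CPM, from 62 UMIs in 4 cells, against 26.4 in the 25 cells with 1 or 2 UMIs and 33.8 in the 97 cells with at least 3. Zeb2, a factor of cDC2 and pDC, was at 140, 392 and 402 CPM in the same order, Cd14 at 21.1, 64.0 and 248, and Irf4 at 21.1, 30.1 and 74.3. Ifitm6 was present in all 3 classes, at 295, 354 and 222 CPM, and Ifitm3 at 1685, 2007 and 2019. Ifitm6 and Ifitm3 were thus above the comparison cells in every class, while more than 50% of the Irf8 UMIs lay in the 14 cells without Mgl2 or Cd209a.

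Barcodes on the other side of each threshold show how far the pair of genes travels together. The 147 kept barcodes with at least 2 UMIs of Plac8 and no Cd7 had Ifitm6 at 207 CPM, Irf7 at 38.2 and Ly6c2 at 58.1, near the values of the Cd7 Plac8 cells, but Irf8 at 359 and Lyz2 at 2045 CPM, and 26 of them held at least 10 UMIs of the nonclassical monocyte set. The 112 with Cd7 and at most 1 UMI of Plac8 had Ifitm6 at 63.7 CPM, Irf7 at 4.02, Spib at 20.1 and Ccl17 at 1862. Just inside the rule, 8 cells with exactly 2 UMIs of Plac8 had Ifitm6 at 151 CPM, and just outside it 13 cells with Cd7 and exactly 1 UMI had 103. The 36 cells with exactly 1 UMI of Cd7 had Ifitm6 at 252 CPM, and among the Cd7 Plac8 cells with 2 to 4, 5 to 9 and at least 10 Plac8 UMIs it was at 201, 260 and 254.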

How the data were processed

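The deposited files are raw UMI count matrices, 1 per sort, made by the authors with Cell Ranger 3.2 on mm10 per the submitters' processing notes (the file headers give software version 3.0.2); Seurat is also named there, with no role. From these counts, barcodes were filtered as the report states (210 barcodes of the cDC2 sort left on depth or mitochondrial share and 163 on the 3 gene filters), UMIs were summed over cells and divided by the group total to give CPM. For ratios, a group without a UMI of a gene was given 3 counts. The groups' totals were 1887529 and 29304777 UMIs, and a library holds no replicate, so precision is counting error only (exact Poisson, Clopper-Pearson and conditional binomial intervals at 95%). Genes at 10 CPM or more in either group were measured, with Cd7, Plac8, Mgl2, Cd209a, Cd79a, S100a8, S100a9 and Fscn1 left out. Doublets were not removed. A few named genes are not reported here. Named genes were the 6 markers, the 20 largest differences in each direction among 2572 genes at 50 CPM or more in either group, and in each of 49 lists up to 4 genes of largest difference and the 2 of highest level, with defining markers of other types. The members and lists were chosen with earlier results of these data known. Gene coordinates are from GENCODE vM21, which matched 30934 of 31053 features, and promoters from RefSeq. Scripts were tested on simulated data and used Python 3.11.15, numpy 2.4.6, scipy 1.17.1, pandas 2.3.3 and matplotlib 3.10.9. The alternatives changed the thresholds, the comparison cells, the depth, the scaling and the cells left out.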

Additional observations from a re-analysis of the deposited data

How the results depend on the processing

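The genes followed were the markers, the 20 largest differences in each direction and others picked by name. Of 66 followed genes that differed at least 2-fold, 51 stayed past 2-fold in every alternative that gave them a value, and 3 changed sign in at least 1. Many were picked for their large difference in these same cells, so this count does not describe the other called genes. The floor of 50 CPM leaves a gene's own ratio unchanged, so no gene could fail in that alternative. The share of Cd7 Plac8 cells, 5.09%, was 4.19% with at least 5 Plac8 UMIs, 3.74% with at least 2 Cd7 UMIs and 1.81% when the rule was read on cells thinned to 3000 UMIs. The counts of 467 higher and 325 lower genes became 1619 and 653 in thinned cells (49 Cd7 Plac8 cells, so few UMIs by construction), 91 and 140 with a floor of 50 CPM, and 131 and 138 with a 3-fold rule, while centring on the median gene left 255 higher. Alternatives added after the data were seen gave 217 higher and 495 lower genes without the 2 highest cells of each gene, which removes a larger part of the smaller group, and 839 higher genes among cells of at most 15000 UMIs. Siglech, 2.18 on the log2 scale, was -0.71 with a mitochondrial limit of 5%, -0.25 without its 2 highest cells and -0.62 without cells under 3% MHC class II UMIs. Without cells holding at least 5 macrophage-gene UMIs, Retnla went from -4.50 to 0.069 and the interstitial macrophage median from -3.20 to 0.086. Retnla and other genes of that list define this filter, so these changes are no independent check. Apoe, 3.32, was -0.20 among cells of at most 15000 UMIs, and the fibroblast list, with 1 measured gene, went from -2.85 to 0.99 in thinned cells. For ratios, a group without a UMI of a gene was given 3 counts, which weighs most in the 49 thinned Cd7 Plac8 cells. The cause of the fibroblast change was not tested. Ifitm6 ranged from 2.94 to 4.38, Irf7 from 2.99 to 4.58, Spib from 1.51 to 3.25 and Ms4a4c from 0.66 to 1.77. Against all other kept barcodes Apoe was 1.95 and Hdc 4.39 in place of 5.54. No paired analysis was possible because each sort has 1 library.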

Other observations

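Of 11 measured genes of lymphocyte-associated signalling, 3 were higher and 1 lower, with a median log2 difference of 0.03 against 0.23 over all genes. Single genes known from lymphocytes or vessels, taken from several lists and picked for their difference, do not stand for a group. Cd22, an inhibitory lectin of B cells, was found in 22 Cd7 Plac8 cells with 30 UMIs in all, at 15.9 CPM against 0.307 (51.8-fold higher), while Pax5, Ebf1 and Ms4a1 were at 0. Barcodes with Cd79a, a B cell gene, had been left out beforehand. S1pr4, a sphingosine phosphate receptor of lymphocytes, was 8.17-fold higher, Ltb, a lymphotoxin chain, 2.72-fold, and Pecam1, the adhesion protein CD31, 5.85-fold. Of 20 immediate early and heat shock genes, 5 were higher and 2 lower. Jun was at 695 CPM against 270 (2.57-fold) and Fos at 679 against 332 (2.05-fold, under 2-fold relative to the median gene). Hspa1a, a heat shock chaperone with a near-identical neighbour, was at 465 against 152 CPM, was found in 44 Cd7 Plac8 cells with up to 125 UMIs in 1, and stood at 211, 250 and 674 CPM from the shallowest to the deepest of the cells. Its log2 difference of 1.62 was 0.21 when the rule was read on thinned cells. The part of depth in these values was not tested.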
